A study of Homo sapiens with 4 samples.

Results

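The BCL2 family comprises the proteins that decide whether the outer mitochondrial membrane is opened during apoptosis. The 10 members described here (BCL2, BCL2L1, MCL1, BAX, BAK1, BID, BAD, BBC3, PMAIP1 and BCL2L11) were taken by gene name from the 55764 genes in the deposited expression table. All 10 were listed, and all 10 passed the filter on low values that left 14306 genes for testing. The cells were TE5, a human cell line of oesophageal squamous cell carcinoma grown in serum-containing medium. In the 2 ETS1 libraries the cells had been transduced with a lentiviral vector that expresses the ETS-domain transcription factor ETS1. The labels name both a CMV vector and pLKO.1 TRC, and which of them carried ETS1 is unclear. In the 2 control libraries they carried the backbone without ETS1 and are labelled wild type. Selected cells were used in both groups, per the study's design text, and the labels do not say whether the 2 libraries of a group came from separate transductions or cultures. The p-values below therefore measure only the spread between these libraries, which may be technical.

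The family falls into classes with opposing roles, as background. The survival proteins BCL2, BCL-xL (gene BCL2L1) and MCL1 bind and hold back the others. The effectors BAX and BAK (gene BAK1) form the pores through which cytochrome c leaves the mitochondrion, after which APAF1 and caspase-9 assemble into the apoptosome. The BH3-only proteins BID, BAD, PUMA (gene BBC3), NOXA (gene PMAIP1) and BIM (gene BCL2L11) relay stress signals by occupying the survival proteins or by activating the effectors. Several of these genes, among them MCL1, BCL2L1 and BCL2L11, are spliced into forms with different activity, and a value per gene does not separate those forms.

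Expression was given as FPKM, the fragments per kilobase of gene scaled to the depth of the library. The depth recovered from the tables ran from 40356564 to 44119426 reads in the controls and from 56502625 to 57269727 in the ETS1 libraries, so the latter were 1.35 times as deep. ETS1 itself was at 0.491 and 0.509 FPKM in the controls and at 1.84 and 1.87 FPKM in the ETS1 libraries, a ratio of 3.71 (limma adjusted p 0.00070). Of 5 squamous markers, 4 (KRT5, KRT6A, KRT14 and TP63) stayed under 0.1 FPKM in every library, and SOX2 ran from 2.72 to 3.82 FPKM. The squamous identity of the line therefore rests on the label. Of 5 epithelial markers, KRT8 was at 3.91 and 3.87 FPKM in the controls and 6.48 and 6.59 FPKM in the ETS1 libraries, and KRT18 at 10.2 and 10.5 against 8.35 and 8.29 FPKM. CDH1 was at 0.571 and 0.567 FPKM in the controls and 1.08 and 0.916 FPKM in the ETS1 libraries. EPCAM was at 1.37 and 1.36 against 0.915 and 1.12 FPKM, and KRT19 ran from 0 to 0.0224 FPKM over the 4 libraries. The 4 immune markers and the 2 listed endothelial markers were under 0.1 FPKM in every library. The summed level of 6 fibroblast markers, mostly COL1A1, was 2.13 to 2.28 FPKM in the controls and 3.09 to 3.19 in the ETS1 libraries. COL1A2 was listed at 0 in both controls and at 0.0016 and 0 FPKM in the ETS1 libraries. DCN was at 0.012 and 0.0028 FPKM in the controls and at 0 in both ETS1 libraries. LUM was at 0.0082 and 0.038 FPKM in the controls and 0.17 and 0.14 FPKM in the ETS1 libraries. The part of these differences in the results below was not tested.

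Both pore-forming effectors and the BH3-only gene BID were lower in the ETS1 libraries, by 26.6% to 31.0% of the control FPKM, and the BH3-only gene PMAIP1 and the survival gene MCL1 were higher, by 77.8% and 19.6%. The remaining 5 members (BCL2, BCL2L1, BAD, BBC3 and BCL2L11) did not pass the test. limma, which estimates each gene's spread with help from all genes, thus called 2 members higher and 3 lower at an adjusted p under 0.05, out of 10. Over all 14306 tested genes, limma called 30.7% higher and 28.4% lower, or 59.1% in either direction, so a share of 5 in 10 is close to that of genes at large. The members' median log2 change was -0.062 against 0.016 for all tested genes, and their median absolute log2 change was 0.19 against 0.20. In 9 of the 10 members both ETS1 values lay on one side of both control values, as they did in 82.0% of tested genes. The smallest two-sided p that an exact permutation test allows with 4 values is 0.333, which these 9 members reached, while BBC3 gave 1.0. In bulk RNA a smaller share of cells with a transcript and less of it per cell cannot be told apart.

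**Figure D1:**
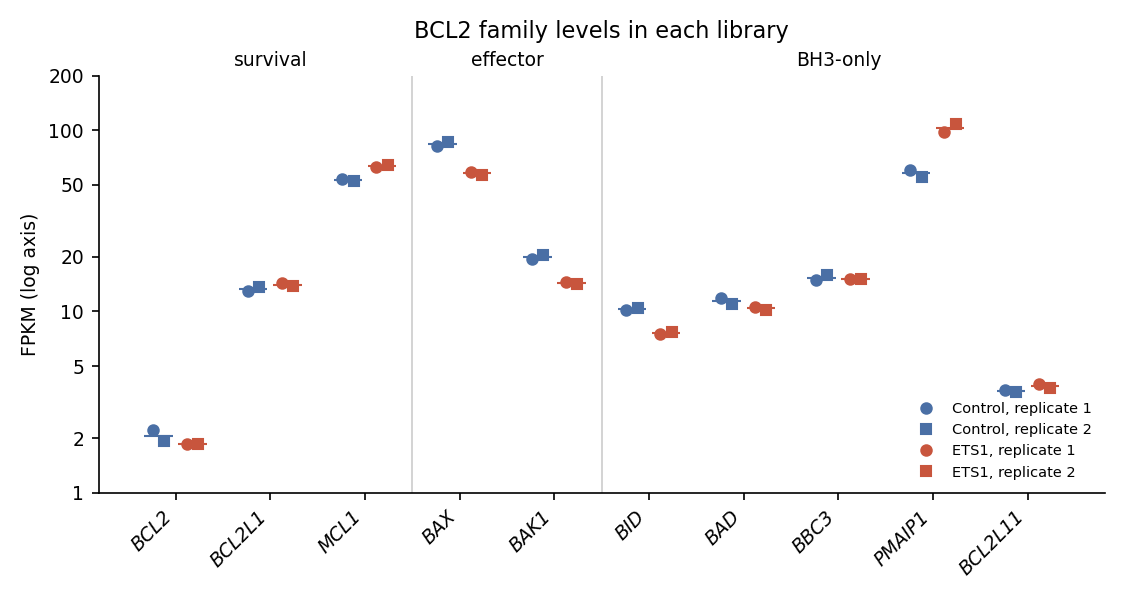
FPKM of the 10 members in each of the 4 libraries on a log axis, grouped by role, with circles for replicate 1, squares for replicate 2 and short lines at the group means. BAX, BAK1 and BID sit lower in the ETS1 libraries (red) than in the controls (blue), PMAIP1 and MCL1 sit higher, and the other 5 members are nearly level.

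BAX, the effector that moves from the cytosol to mitochondria when activated, had the highest FPKM of the members in the controls, at 81.8 and 86.3. It had 59.2 and 56.8 FPKM in the ETS1 libraries. The groups were clearly apart, since the higher ETS1 value lay well under the lower control value. On the log2(FPKM + 1) scale BAX fell by 0.53, with a standard error of 0.039 and an adjusted p of 0.00085 from limma. The values rested on 8320 to 9868 reads per library, so counting error was small. BAX lies on chromosome 19 (48954815 to 48961798, plus strand, GRCh38, GENCODE 29) with no other annotated gene overlapping it. The 50 nearest tested protein-coding genes had a median log2 change of -0.058.

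BAK1 encodes the effector that resides on mitochondria. It was at 19.6 and 20.4 FPKM in the controls and at 14.5 and 14.2 FPKM in the ETS1 libraries. Again no ETS1 value reached a control value, and the libraries of each group differed by less than 1 FPKM. BAK1 fell by 0.45 on the log2(FPKM + 1) scale (SE 0.034, limma adjusted p 0.00085), with 1791 to 2038 reads per library. The gene is on chromosome 6 (33572547 to 33580293, minus strand, GRCh38, GENCODE 29), and its neighbours had a median log2 change of 0.0053. The pseudogene GGNBP1 overlaps it on the other strand, at no more than 0.336 FPKM. Taking both effectors, their summed FPKM was 101.4 and 106.6 in the controls and 73.7 and 71.0 in the ETS1 libraries.

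BID, which is cut by caspase-8 and so links death receptors to mitochondria, had 10.2 and 10.5 FPKM in the controls. In the ETS1 libraries it had 7.47 and 7.69 FPKM. The groups did not overlap. Its log2 change was -0.40 (SE 0.036, limma adjusted p 0.0013), from 1814 to 2050 reads per library. BID is on chromosome 22 (17734138 to 17774770, minus strand, GRCh38, GENCODE 29), where its neighbours had a median log2 change of -0.090.

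PMAIP1, whose protein NOXA binds MCL1 in preference to the other survival proteins and promotes its breakdown, showed the largest change of the family. It was at 60.2 and 55.4 FPKM in the controls and at 97.5 and 108 FPKM in the ETS1 libraries. Those were the highest values of any member there. The spread within the ETS1 group (SD 7.43 FPKM, n = 2) was the widest of any member in FPKM, yet small beside the distance between the groups. PMAIP1 rose by 0.82 on the log2(FPKM + 1) scale (SE 0.065, limma adjusted p 0.00098), from 5443 and 5479 reads to 12519 and 13683 reads. In absolute size this change was at percentile 97.8 of all tested genes, against 90.5 for BAX, 85.4 for BAK1, 81.3 for BID and 61.1 for MCL1. PMAIP1 lies on chromosome 18 (59899948 to 59904306, plus strand, GRCh38, GENCODE 29), and its neighbours had a median log2 change of 0.056. The 3 tested genes whose values over the 4 libraries, relative to the control mean, lay nearest to those of PMAIP1 were SC5D, CLIC4 and KCTD12. Their Euclidean distances were 0.038, 0.047 and 0.051 log2 units, a description over 4 libraries only.

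MCL1, a short-lived survival protein that restrains BAK and binds NOXA and BIM, had 53.6 and 52.4 FPKM in the controls. In the ETS1 libraries it had 62.8 and 63.9 FPKM. The groups were apart, by far more than the libraries within each differed. MCL1 rose by 0.25 on the log2(FPKM + 1) scale (SE 0.028, limma adjusted p 0.0020), from 9154 to 15290 reads per library. It lies on chromosome 1 (150574551 to 150579738, minus strand, GRCh38, GENCODE 29). Its neighbours had a median log2 change of 0.12, and with that median removed the change in MCL1 was 0.14 with a limma adjusted p of 0.0099. Under quantile normalization it was 0.41 (limma adjusted p 0.00097), so its size varied with the scaling while the call did not.

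**Figure D2:**
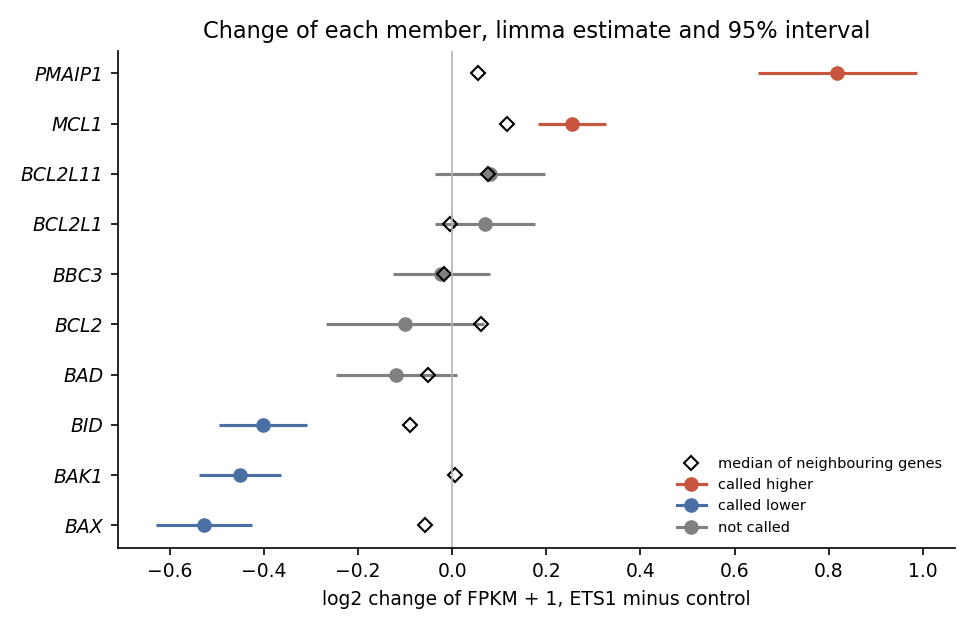
Log2 change of FPKM + 1 (ETS1 minus control) of each member from limma, with its 95% interval as a line, coloured by call, and the median change of the 50 nearest tested protein-coding genes as an open diamond. For the 5 called members the diamond lies outside the interval, and for the 5 others the interval includes 0.

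The survival genes BCL2 and BCL2L1 did not pass. BCL2 is the founding member and the gene joined to the immunoglobulin locus in follicular lymphoma. It had the lowest FPKM of the 10, at 2.20 and 1.93 in the controls and 1.86 and 1.86 in the ETS1 libraries. The ETS1 values lay just under the lower control, and the controls differed from each other by more than that gap. The log2 change was -0.10 with a 95% interval of -0.27 to 0.067 (limma adjusted p 0.23). With a trend over gene length and GC content removed, BCL2 passed at -0.20 (limma adjusted p 0.035), a setting chosen after seeing the data. BCL2L1 was at 13.0 and 13.7 FPKM in the controls and 14.4 and 13.8 FPKM in the ETS1 libraries. The lower ETS1 value was barely above the higher control. Its log2 change was 0.070 with a 95% interval of -0.036 to 0.18 (limma adjusted p 0.20), and it too passed with that trend removed, at 0.14 (limma adjusted p 0.033). BCL2 lies on chromosome 18 (63123346 to 63320128) and BCL2L1 on chromosome 20 (31664452 to 31723989), both on the minus strand of GRCh38 in GENCODE 29.

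Among the BH3-only genes, BBC3, BAD and BCL2L11 did not pass. BBC3, whose protein PUMA binds all the survival proteins, had 14.9 and 15.8 FPKM in the controls and 15.0 and 15.1 FPKM in the ETS1 libraries. Its ETS1 values lay between the controls. The log2 change was -0.023 with a 95% interval of -0.13 to 0.080 (limma adjusted p 0.64), so under this model changes of the size seen in BAX or PMAIP1 lay outside the interval. BAD, which binds BCL2 and BCL-xL and is held in check by phosphorylation, had 11.9 and 11.0 FPKM in the controls and 10.7 and 10.2 FPKM in the ETS1 libraries. Both ETS1 values were under both controls, by a margin smaller than the gap between the controls. Its log2 change was -0.12 with a 95% interval of -0.25 to 0.0095 (limma adjusted p 0.094). BAD passed without control replicate 2 (-0.17, limma adjusted p 0.031), and its direction turned with the length and GC trend removed (0.023, limma adjusted p 0.71). The coding gene GPR137, at 12.6 to 13.4 FPKM, overlaps BAD on the other strand, and since the use of strand in counting is not given in the sources used here, the value of BAD is uncertain. BCL2L11, whose protein BIM can activate BAX directly, had 3.67 and 3.58 FPKM in the controls and 4.00 and 3.78 FPKM in the ETS1 libraries. The groups did not overlap, but the ETS1 libraries differed from each other by more than the gap to the controls. Its log2 change was 0.079 with a 95% interval of -0.037 to 0.20 (limma adjusted p 0.19), and the median of its neighbours was 0.076. The positions in GRCh38 (GENCODE 29) are chromosome 19, 47220822 to 47232766, minus strand, for BBC3, chromosome 11, 64269830 to 64284704, minus strand, for BAD, and chromosome 2, 111119378 to 111168447, plus strand, for BCL2L11.

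The authors' deposited table made the same 5 calls at its adjusted p under 0.05, where it called 51.2% of the 15683 genes with an adjusted p. The authors' deposited table gives log2 fold changes of -0.55 for BAX, -0.49 for BAK1, -0.46 for BID, 0.80 for PMAIP1 and 0.23 for MCL1. For the other members the authors' deposited table gives adjusted p-values from 0.179 for BCL2 to 0.567 for BBC3.

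**Figure D3:**
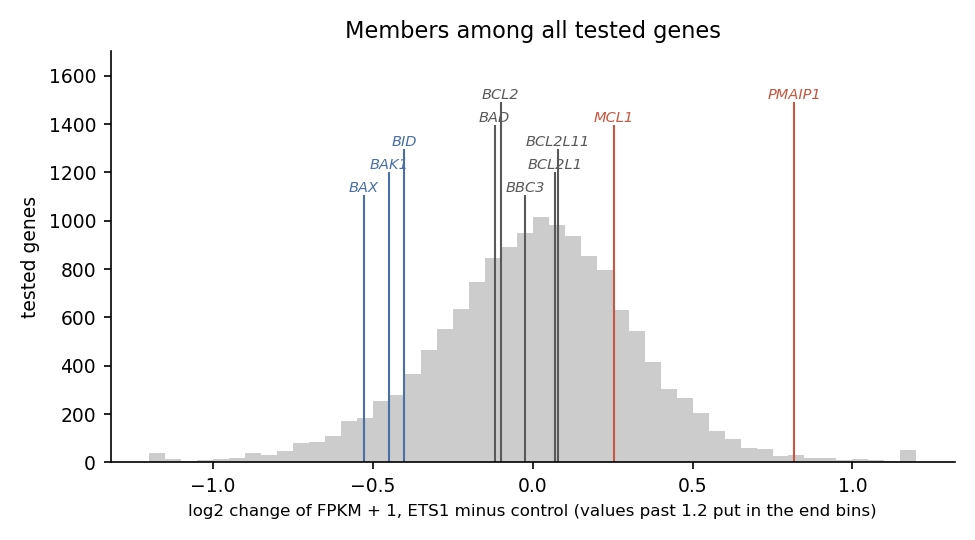
Number of tested genes (y axis) by log2 change of FPKM + 1, ETS1 minus control (x axis, bins of 0.05), with values past 1.2 in the end bins and each member marked by a line. PMAIP1 lies far out on the right at 0.82, BAX, BAK1 and BID lie on the left flank, and the 5 members that were not called lie in the centre.

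The order of the levels changed at the top. FPKM divides by a length for each gene, so the order between genes also depends on the lengths used, which were not checked here. In the controls the order from high to low was BAX, PMAIP1, MCL1, BAK1, BBC3, BCL2L1, BAD, BID, BCL2L11 and BCL2, from a mean of 84.0 to 2.07 FPKM, a range of 40.7-fold. The control ranges of neighbours in that order did not overlap in any pair. In the ETS1 libraries PMAIP1 (mean 103 FPKM) and MCL1 (63.4 FPKM) stood above BAX (58.0 FPKM), followed by BBC3, BAK1 and BCL2L1. The ranges of BAK1 and BCL2L1 overlapped there, so those neighbours did not differ beyond their spread. BAD, BID, BCL2L11 and BCL2 kept their places at the end. Against all tested genes, whose median level was 6.33 FPKM, PMAIP1, BAX and MCL1 were at percentiles 96.3, 95.6 and 94.6, and BCL2 was at percentile 17.1.

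Ratios within a library show how the classes shifted against each other. They need no scaling between libraries, and they are given without a test. The trend over gene length and GC content, -0.097 for BAX and 0.031 for MCL1 on the log2 scale, was not removed from them. The ratio of BAX to MCL1 was 1.53 and 1.65 in the controls and 0.942 and 0.888 in the ETS1 libraries. Which of the pair was the more abundant depends on the gene lengths behind FPKM. With a length fixed for each gene, the fall of the ratio does not. The ratio of BAX to BCL2L1 was 6.28 and 6.29 in the controls and 4.12 and 4.12 in the ETS1 libraries, with almost no spread within a group. The ratio of BAX to BCL2 was 37.1 and 44.7 in the controls against 31.8 and 30.6, the controls being the more spread. PMAIP1 stood at 1.12 and 1.06 times MCL1 in the controls and at 1.55 and 1.69 times MCL1 in the ETS1 libraries. The ratio of BCL2L11 to BCL2L1 overlapped between the groups (0.282 and 0.261 against 0.278 and 0.274).

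The 3 survival genes together came to 0.679 and 0.638 times the 2 effectors in the controls. In the ETS1 libraries they came to 1.07 and 1.12 times, a 1.67-fold rise of the ratio. The survival sum was mostly MCL1 and the effector sum mostly BAX, so this ratio largely restates that of BAX to MCL1, inverted. BCL2 and BCL2L1 were not called. Against the 5 BH3-only genes the ratio of the survival genes moved the other way, from 0.683 and 0.706 to 0.587 and 0.549. The effectors made up 37.4% and 39.4% of the summed FPKM of the 10 members in the controls and 25.6% and 24.0% in the ETS1 libraries. The BH3-only genes made up 37.2% and 35.5% in the controls and 46.9% and 49.0% in the ETS1 libraries. That class total was mostly PMAIP1, which alone was 22.2% and 20.5% of the family's FPKM in the controls and 33.9% and 36.6% in the ETS1 libraries. The share of the survival genes went from 25.4% and 25.1% to 27.5% and 26.9%. Within these shares, MCL1 went from 19.8% and 19.3% to 21.9% and 21.6%. BAX, within the effector share, went from 30.2% and 31.8% to 20.6% and 19.2%. These are shares of summed FPKM, which depend on the gene lengths used, and protein was not measured.

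**Figure D4:**
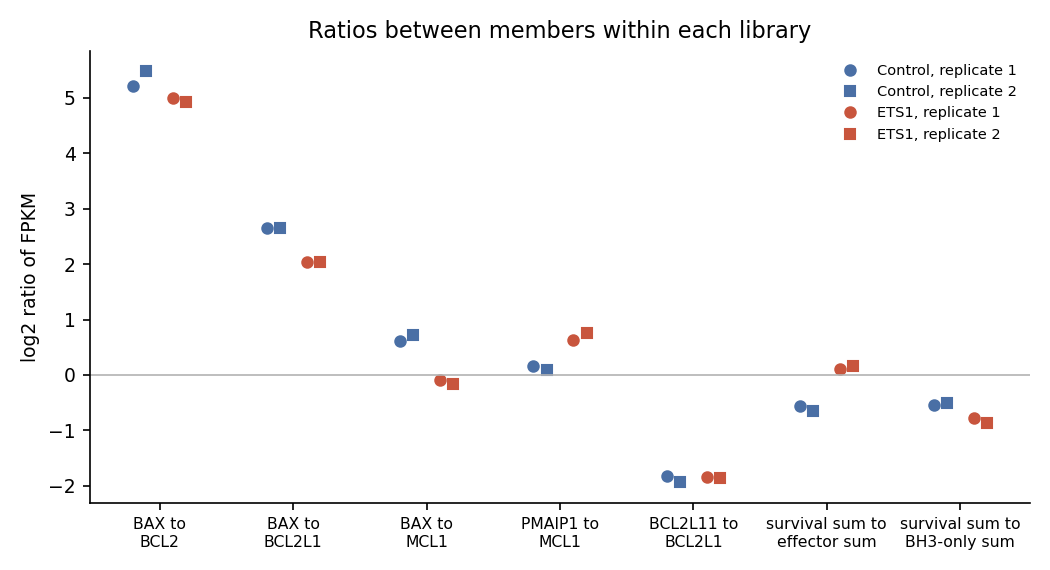
Log2 ratio of FPKM between members, or between the sums of classes, in each of the 4 libraries, with circles for replicate 1 and squares for replicate 2. The ratios of BAX to BCL2L1 and to MCL1 lie lower in the ETS1 libraries (red) than in the controls (blue), those of PMAIP1 to MCL1 and of survival to effector genes lie higher, and BCL2L11 to BCL2L1 overlaps.

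The promoter windows of the changed members are shown for ETS core sequences, since an ETS factor was overexpressed. The windows are the 250 bases before a RefSeq start (GRCh38.p14), 5′ to 3′ on the gene's strand, and 9 of the 10 members matched, MCL1 being the exception. Capitals mark GGAA or its reverse complement TTCC. BAX, BAK1 and PMAIP1 each have 1 start in the table and are printed because they carry the largest changes.
BAX, chr19:48954625-48954874, plus strand: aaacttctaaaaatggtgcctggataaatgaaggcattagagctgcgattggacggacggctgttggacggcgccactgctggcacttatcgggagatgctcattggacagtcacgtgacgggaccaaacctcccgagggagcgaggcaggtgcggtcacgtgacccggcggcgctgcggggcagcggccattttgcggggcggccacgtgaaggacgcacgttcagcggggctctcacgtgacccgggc
BAK1, chr6:33580277-33580526, minus strand: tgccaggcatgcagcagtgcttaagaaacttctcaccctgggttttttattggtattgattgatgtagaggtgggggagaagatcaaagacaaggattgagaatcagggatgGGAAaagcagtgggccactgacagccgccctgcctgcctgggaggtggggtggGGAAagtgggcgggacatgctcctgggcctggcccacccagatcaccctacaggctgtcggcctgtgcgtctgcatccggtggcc
PMAIP1, chr18:59899746-59899995, plus strand: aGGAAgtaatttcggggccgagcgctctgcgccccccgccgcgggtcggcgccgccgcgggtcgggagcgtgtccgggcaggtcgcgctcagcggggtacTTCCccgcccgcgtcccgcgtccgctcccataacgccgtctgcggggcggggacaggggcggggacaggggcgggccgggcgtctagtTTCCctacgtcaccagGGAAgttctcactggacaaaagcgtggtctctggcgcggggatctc
The BAX window held 0 matches, the BAK1 window 2 and the PMAIP1 window 4. The 5 BID windows, from as many starts, held between 1 and 5. Among the members that were not called, BBC3 held 5 and BCL2L11 held 0. Of all 35116 windows of this length, 92.7% held at least 1 GGAA on either strand, and 12 of the 15 member windows did. The longer CCGGAA, which contains GGAA, was in 14.5% of all windows and in 0 of the 15. A match describes letters only, and binding was not measured.

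Other genes of the pathway were taken from 4 lists. Among 13 further BCL2 family genes, 8 reached the filter, of which 4 were called higher and 2 lower, with a median log2 change of 0.11 against 0.016 for all tested genes. Of all tested genes 59.1% were called, 30.7% higher and 28.4% lower. HRK, a BH3-only gene, had 6.41 and 6.13 FPKM in the controls and 3.83 and 3.94 FPKM in the ETS1 libraries. It fell by 0.57 on the log2(FPKM + 1) scale (limma adjusted p 0.00080). BNIP3, a hypoxia-induced mitophagy receptor, rose by 0.44 and BCL2L12 fell by 0.25 (limma adjusted p 0.00089 and 0.0024). BIK, another BH3-only gene, was low, at 1.04 and 1.00 FPKM in the controls and 1.39 and 1.69 FPKM in the ETS1 libraries (log2 change 0.33, limma adjusted p 0.021). The other 2 called higher, named after their values were seen, were the survival gene BCL2L2 (0.18) and the BH3-only gene BMF (0.18). When 1 library was left out, BMF lost its call whichever it was, BIK kept it only without ETS1 replicate 1, and BCL2L2 lost it without ETS1 replicate 1 or ETS1 replicate 2. These 3 genes also did not pass with no filter (limma adjusted p 0.074 to 0.089), BMF did not under quantile normalization or with a replicate block (limma adjusted p 0.074 and 0.078), and in the authors' deposited table BIK and BMF have adjusted p-values of 0.183 and 0.0914. The survival gene BCL2A1 was at most at 0.0325 FPKM in each library, and BOK, an effector-like member, ran from 0.794 to 0.860 FPKM, so neither was tested.

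Downstream of the pore, 12 of 13 outer membrane and apoptosome genes were tested, of which 1 was called higher and 5 lower, with a median log2 change of -0.074, so that 6 in 12 were called against 59.1% of all tested genes. APAF1, the scaffold of the apoptosome, went from 3.24 and 3.26 FPKM to 4.83 and 4.89 FPKM. It was the member of the list that rose, by 0.46 (limma adjusted p 0.0010). VDAC3, a channel of the outer membrane, had 78.5 and 78.2 FPKM in the controls and 49.6 and 48.6 FPKM in the ETS1 libraries, a log2 change of -0.66 (limma adjusted p 0.00044). ENDOG and AIFM1, which encode mitochondrial proteins released during cell death, had log2 changes of -0.41 and -0.30 (limma adjusted p 0.0027 and 0.0040). The neighbours of ENDOG had a median log2 change of -0.37, and with it removed the gene did not pass (-0.042, limma adjusted p 0.48). MTCH2 (-0.29) and VDAC1 (-0.17), named after their values were seen, complete the 5, and VDAC1 did not pass under quantile normalization (limma adjusted p 0.97). CYCS, which encodes cytochrome c, and CASP9, which encodes the initiator caspase of the apoptosome, did not pass, with log2 changes of 0.091 and 0.070.

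The ubiquitin ligases and deubiquitinases that set MCL1 turnover were tested for 6 of 7 genes. Of these 6, limma called 0, against 59.1% of all tested genes, and 0 also at an unadjusted p under 0.05. Their log2 changes ran from 0.014 for USP9X to 0.11 for FBXW7. The authors' deposited table called 0 of these genes, against 51.2% of all its genes with an adjusted p. With voom on recovered reads 1 was called, against 4832 called higher and 4259 lower among the 14306 tested genes. TRIM17, the list gene under the filter, was at 0.244 and 0.128 FPKM in the controls and 0.678 and 0.761 FPKM in the ETS1 libraries. Of 9 transcription factors known to act on family genes, 2 were called higher and 3 lower, with a median log2 change of -0.084, and the 5 in 9 called are close to the 59.1% of all tested genes. JUN went from 90.0 and 94.6 FPKM to 122 and 124 FPKM and rose by 0.41 (limma adjusted p 0.0011). TP73 rose by 0.22 and lost its call without ETS1 replicate 2 (limma adjusted p 0.067). E2F1 fell by 0.29 (limma adjusted p 0.0012) and DDIT3, the stress factor CHOP, by 0.18 (limma adjusted p 0.0049). Under quantile normalization both changes were smaller but still called, at -0.15 for E2F1 and -0.096 for DDIT3 (limma adjusted p 0.0067 and 0.041).

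**Figure D5:**
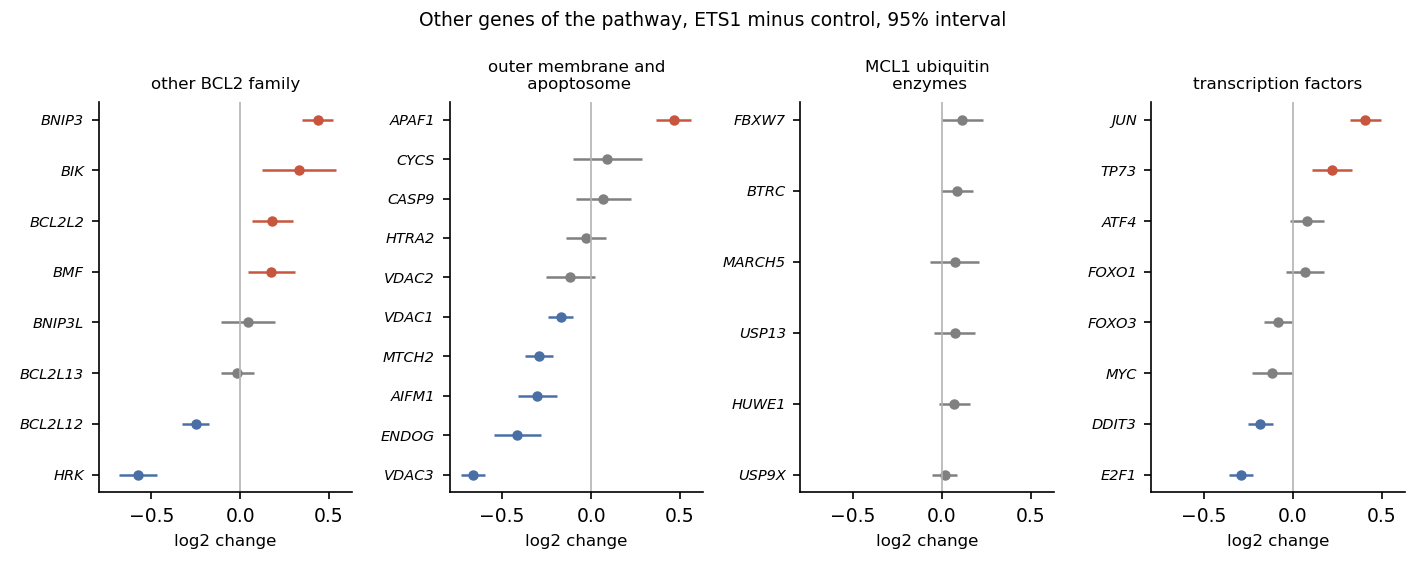
Log2 change of FPKM + 1 (ETS1 minus control) with its 95% interval for tested genes of the 4 lists, red where called higher, blue where called lower and grey where not called. HRK and VDAC3 lie furthest to the left, APAF1, BNIP3 and JUN furthest to the right, and all 6 MCL1 ubiquitin enzymes are grey.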

How the data were processed

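Bulk RNA-seq of 2 control and 2 ETS1 libraries was analysed. The submitters' processing notes name HISAT2, HTSeq, DESeq2 and hg38, without versions or roles. FPKM values per gene were computed by the authors. In the authors' deposited comparison table of 16652 genes, the mean normalized count is a signal averaged over libraries by the authors, the fold changes and their errors are log2 values of the authors, and p-values, raw and adjusted, come from the authors as well, all per the file headers. Whether these fold changes were shrunk is not given in the sources used here.

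Here log2(FPKM + 1) was fitted, for the 14306 genes whose mean reached 1 FPKM, with limma 3.58.1 in R 4.3.3, with a group term, an intensity trend on the variance prior (2.84 prior and 2 residual degrees of freedom), two-sided tests and Benjamini-Hochberg adjustment over all tested genes at 0.05. Adding 1 understates changes of low genes. The steps were also run on simulated data with the same replicate spread for every gene and far fewer changed genes than were called here. That run therefore does not measure the error of these calls. Reads were recovered from the FPKM steps and the mean normalized counts. Of the values of 2885 genes with a mean under 100, 99.3% came within 0.05 of a whole read, and of those of 8566 genes with a mean over 1000, 57.8%, so reads of abundant genes are approximate. Positions are from GENCODE 29, matched by name. Neighbours are the 25 nearest tested protein-coding genes on each side.

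Some genes of the pathway lists are counted but not reported here by name. Members and lists were chosen with earlier results of these data known. The rule for named genes took all members, ETS1, up to 4 called genes of each list with the largest change, any list gene not detected, and the 3 genes nearest to the most changed member. Outside it, the list genes BCL2L2, BMF, MTCH2, VDAC1, CYCS, CASP9, USP9X, FBXW7, TRIM17, BCL2A1 and BOK are named too, chosen after their values were seen. Also named are the marker genes and 2 genes that overlap members. Alternatives covered pseudocount, filter, scaling, variance prior, replicate block, voom on recovered reads, the authors' deposited values, the neighbours' median, each library left out and, chosen after seeing the data, a length and GC trend.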

Additional observations from a re-analysis of the deposited data

How the results depend on the processing

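BAX, BAK1, BID, PMAIP1 and MCL1 kept their direction and their side of the threshold under all 15 alternatives, with the highest limma adjusted p at 0.017 for MCL1. With the length and GC trend removed, chosen after seeing the data, BCL2 (-0.20) and BCL2L1 (0.14) passed, while BAD (0.023), BBC3 (0.057) and BCL2L11 (-0.0018) changed sign without passing. Leaving out each library in turn gave -0.17 to -0.063 for BAD, passing only without control replicate 2, -0.067 to 0.021 for BBC3, -0.16 to -0.036 for BCL2, 0.035 to 0.10 for BCL2L1, 0.046 to 0.11 for BCL2L11, 2845 to 3962 genes called higher, 1 to 3 further BCL2 family genes higher, 1 to 2 transcription factors higher and 2 to 4 lower. The log2 change of the ratio of BAX to BCL2 then ran from -0.52 to -0.25, and that of BCL2L11 to BCL2L1 from -0.028 to 0.079. Called genes that kept their call but moved by over 1.5 times were BCL2L12 (-0.14), MTCH2 (-0.19) and AIFM1 (-0.19) under quantile normalization, BCL2L12 (-0.12), ENDOG (-0.26), E2F1 (-0.19) and DDIT3 (-0.097) with the length and GC trend removed, BMF (0.50) and VDAC1 (-0.33) with the neighbours' median removed, BIK (0.58) and BMF (0.27) under voom, and BIK (0.55) with 0.1 FPKM added, beside MCL1, E2F1 and DDIT3 as given above. ETS1 also kept its call but moved, from 0.93 to 1.70 with 0.1 FPKM added and to 1.89 under voom. Its value in the authors' deposited table is 1.84. Requiring a mean of 5 FPKM leaves fewer genes to test. That filter gave 2562 genes called higher, 2 further family genes, 0 outer membrane and apoptosome genes and 1 transcription factor. With no filter there was 1 further family gene and 1 of 7 MCL1 ubiquitin enzymes called higher. Of the 6 such enzymes that passed the filter, 1 was called higher under quantile normalization and under voom. With the length and GC trend removed 1 of the 6 was called lower. The enzyme called need not be the same in each setting. Trimmed-mean scaling and voom each called 5 transcription factors lower, and the authors' deposited table called 2 further family genes higher. The cause was not tested. The replicate block gave 3712 genes higher and 3571 lower and the same member counts of 2 and 3, and took further family genes called higher from 4 to 3. Across genes the replicate differences of the 2 groups had a correlation of -0.046, and the labels do not say that a number marks a pair, so the libraries were not treated as paired. Depth limits BCL2 most among the members, with 655 to 820 reads per library.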
